A study of Mus musculus with 5 samples.

Results

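The subunits of oxidative phosphorylation are the proteins of the respiratory chain (complexes I to IV) and of ATP synthase (complex V), taken here as 109 of the 27998 gene rows of 5 single-nucleus RNA-seq libraries from mouse kidney. Members were chosen by symbol alone: every row starting with Nduf, Uqcr, Sdh, Atp5, mt-Nd, mt-Co, mt-Atp or mt-Cyt, or with a Cox prefix numbered 4 to 8, without pseudogene rows, of which there were 0. The rule gives 83 nuclear-encoded subunits (36 of complex I, 4 of complex II, 8 of complex III, 20 of complex IV and 15 of complex V), 13 mitochondrially encoded subunits, and 13 rows whose symbols fit the rule but which are assembly factors or related proteins (the Ndufaf and Sdhaf genes, Atp5s and Atp5sl). The assembly factors were kept apart from the subunits throughout. Ndufa4 and Ndufa4l2 were counted with complex IV, where the Ndufa4 protein is now placed.

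All animals were male mice of 10 to 12 weeks carrying Six2-TGC, Rosa26rtTA and pTRE-H2BeGFP and fed doxycycline (625 mg/kg of food). In this system the Six2 promoter marks nephron progenitors, so the histone-GFP label follows the nephron epithelium. Nuclei were sorted on DAPI and then on GFP. There was 1 library for each of 5 groups: uninjured GFP-negative nuclei, uninjured GFP-positive nuclei, and GFP-positive nuclei taken at 64 h, at 96 h or at 28 d following bilateral IRI (ischaemia-reperfusion injury, in which the blood supply of both kidneys is stopped and restored). Serum creatinine was 0.375, 0.312 and 0.144 mg/dL at 64 h, 96 h and 28 d, against 0.122 mg/dL in both uninjured groups. The blood urea nitrogen was 37.0, 91.8 and 31.7 mg/dL against 26.1 mg/dL. The 2 uninjured libraries carry the same serum values and were not treated as separate animals, and the labels do not settle whether the uninjured mice had a sham operation.

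With 1 library per group no difference between times has a replicate check, so no test was made and no p-value is given. Each ratio carries an exact 95% interval that covers counting error of unique molecular identifiers (UMIs) only, not the spread between mice or libraries. Libraries held 1922002 to 7153971 UMIs over 3012 to 3508 barcodes, with a median of 484 UMIs per barcode at 96 h and 964 to 1794 in the other libraries. The members took 0.627% of all UMIs in the GFP-positive library without injury, 1.00% at 64 h, 1.01% at 96 h, 0.674% at 28 d and 0.817% in the GFP-negative library. All transcripts of the mitochondrial genome together made up 0.0498% to 0.155% of UMIs. Between 9 and 20 barcodes were shared by any pair of libraries.

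Complex I (NADH dehydrogenase) and complex II (succinate dehydrogenase) pass electrons to ubiquinone, complex III (cytochrome bc1) passes them to cytochrome c, and complex IV (cytochrome c oxidase) passes them to oxygen. The proton gradient that complexes I, III and IV build drives complex V. All complexes but II join subunits read from nuclear genes with subunits read from mitochondrial DNA. Proximal tubule cells and thick ascending limb cells are rich in mitochondria and rely on this pathway for salt transport. Transcripts of mitochondrial genes are made outside the nucleus, so in sorted nuclei they come from material carried along.

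The nuclear members are known for promoters that bind NRF1, GABPA and YY1. Promoter windows of RefSeq (GRCm38.p6, 250 bases before to 50 bases after the start site) were found for 77 of the 96 nuclear rows. The NRF1 motif, CCGGAAG (the ETS core that GABPA binds) and AAGATGGCG (the YY1 motif) were searched on both strands. The NRF1 motif was in 21 of the 77 genes (27.3%) and in 4.60% of all 32851 windows. The GABPA letters were in 20 genes (26.0%) and in 8.86% of all windows. The YY1 letters were in 7 genes (9.09%) and in 1.40% of all windows. The 4 windows below show each motif, in capitals, in members described later: Ndufc1, Uqcr11 and Atp5k had higher levels after injury and Ndufs4 lower ones. The capitals do not overlap: in Atp5k the NRF1 motif comes first and the GABPA letters, on the reverse strand, after the start site.
Ndufc1 (minus strand, chr3:51408906-51409205): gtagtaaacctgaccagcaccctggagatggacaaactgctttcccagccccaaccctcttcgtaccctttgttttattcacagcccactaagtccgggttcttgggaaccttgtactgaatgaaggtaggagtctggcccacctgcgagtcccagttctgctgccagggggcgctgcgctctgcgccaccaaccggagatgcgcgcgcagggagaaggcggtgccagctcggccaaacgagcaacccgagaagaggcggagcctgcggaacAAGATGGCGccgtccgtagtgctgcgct
Ndufs4 (minus strand, chr13:114388045-114388344): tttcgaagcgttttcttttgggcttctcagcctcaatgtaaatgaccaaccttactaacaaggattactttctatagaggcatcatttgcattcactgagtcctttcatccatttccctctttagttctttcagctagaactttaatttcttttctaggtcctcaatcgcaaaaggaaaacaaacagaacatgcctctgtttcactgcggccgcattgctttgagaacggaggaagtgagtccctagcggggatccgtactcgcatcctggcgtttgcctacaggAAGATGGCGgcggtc
Uqcr11 (minus strand, chr10:80406772-80407071): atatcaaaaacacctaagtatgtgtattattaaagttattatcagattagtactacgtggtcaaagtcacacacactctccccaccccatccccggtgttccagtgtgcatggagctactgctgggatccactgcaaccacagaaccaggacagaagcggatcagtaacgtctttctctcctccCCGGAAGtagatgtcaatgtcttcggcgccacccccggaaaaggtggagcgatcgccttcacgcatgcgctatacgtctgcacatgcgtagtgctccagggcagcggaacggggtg
Atp5k (minus strand, chr5:108434350-108434649): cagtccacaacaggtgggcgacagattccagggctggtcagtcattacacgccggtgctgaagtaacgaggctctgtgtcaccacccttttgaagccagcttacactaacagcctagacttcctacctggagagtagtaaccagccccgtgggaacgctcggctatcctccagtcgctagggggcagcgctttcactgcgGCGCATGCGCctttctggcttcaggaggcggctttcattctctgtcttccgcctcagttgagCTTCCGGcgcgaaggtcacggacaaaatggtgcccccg
The YY1 letters lie within the first bases after the start site in both Ndufc1 and Ndufs4, although the levels of these genes moved in opposite directions. Of the members at least 1.5-fold higher at 96 h that have a window, 12 of 46 held the NRF1 motif, 13 of 46 the GABPA letters and 5 of 46 the YY1 letters. Among the other members that passed the count minimum the numbers were 9, 6 and 2 of 26. A match of letters is a description and not a binding site.

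Classes of nuclei were found by clustering without the members and without any mitochondrial gene, so that no member decided where a nucleus was placed. Proximal tubule-like nuclei numbered 2373 in the GFP-positive and 392 in the GFP-negative uninjured library, and 1988, 2484 and 2395 in the 64 h, 96 h and 28 d libraries. All 15 proximal tubule markers had UMIs in each of these 5 sums. Their summed level in counts per 1000000 UMIs (CPM) was 26938 in the GFP-positive uninjured library, then 15968, 14167 and 24110 in order of time. A list of 12 tubule injury genes summed to 159, 1025, 1292 and 305 CPM in the same nuclei. The class includes a cluster led by C3, Fgg and Icam1, genes of inflammation, which held 185, 809 and 183 of these nuclei in order of time and 39 in the GFP-positive uninjured library. Whether these shifts bear on the results below was not tested. CPM is a share of all UMIs, so a gain of some transcripts and a loss of others cannot be told apart.

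The nuclear-encoded subunits were higher in proximal tubule-like nuclei at 64 h and at 96 h after injury, and close to the uninjured level at 28 d. Their summed level was 4863 CPM (95% interval 4802 to 4924) without injury, 9404 CPM (9295 to 9515) at 64 h, 9718 CPM (9558 to 9880) at 96 h and 5483 CPM (5396 to 5571) at 28 d. The ratio to the GFP-positive uninjured library was 1.93 (1.9 to 1.97) at 64 h. It was 2.00 (1.96 to 2.04) at 96 h, and 1.13 (1.1 to 1.15) in the 28 d library. Without the cluster led by C3, Fgg and Icam1 the 3 ratios were 1.93, 2.01 and 1.13. A further cluster with Snx31, Fgg and C3 among its leading genes was kept in these ratios. It held 99 nuclei at 64 h, 1275 at 96 h and 119 at 28 d. The GFP-negative uninjured library gives the size of a difference between libraries without injury: its proximal tubule-like nuclei stood at 6215 CPM (6051 to 6381), which was 1.28 times (1.24 to 1.32) the GFP-positive level, with 15 of 74 subunits at least 1.5-fold higher and 1 lower, where 24.8% and 10.2% of all genes were. Against that library the ratios were 1.51 at 64 h and 1.56 at 96 h, and at 28 d the direction turned (0.882).

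Gene by gene, 48 of the 74 nuclear-encoded subunits with at least 20 UMIs over both sums were at least 1.5-fold higher at 64 h, where 22.8% of all 12011 genes were. At 96 h the count was 52 of 74, against 36.5% of all genes, and at 28 d it was 12 of 74, against 14.2%. Lower by that factor were 1, 0 and 2 of the 74, against 12.0%, 13.8% and 7.85% of all genes. The median log2 difference of the 74 was 0.82, 0.83 and 0.16, and that of all genes 0.16, 0.29 and 0.08. Scaling by TMM factors in place of total UMIs shifted every log2 difference by -0.20 (64 h), -0.43 (96 h) and -0.14 (28 d). The counts then were 38 higher and 2 lower at 64 h, 32 and 5 at 96 h, and 7 and 2 at 28 d, where 15.5%, 21.4% and 10.0% of all genes were higher and 17.8%, 28.0% and 11.9% lower.

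**Figure D1:**
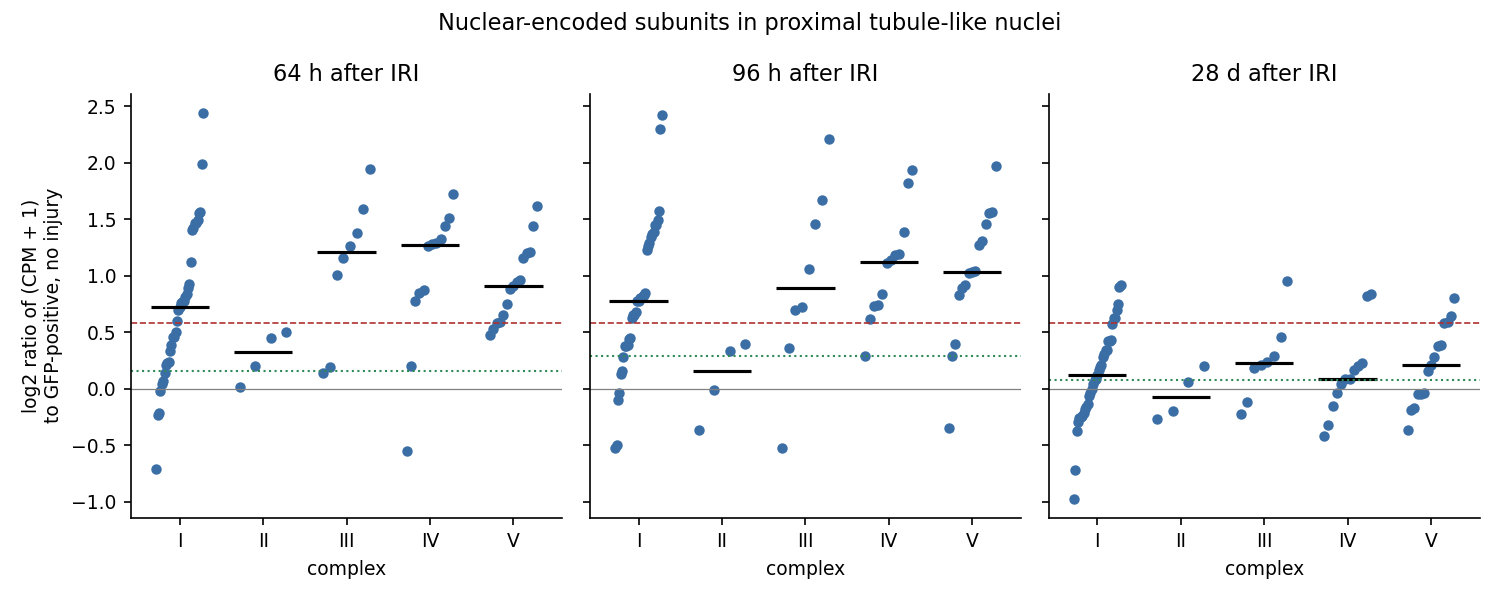
Each point is 1 nuclear-encoded subunit in proximal tubule-like nuclei, by complex (x axis), with its log2 ratio of CPM + 1 to the GFP-positive uninjured library (y axis); black bars are medians, the red dashed line is 1.5-fold and the green dotted line is the median of all genes. Complexes III, IV and V lie mostly above the 1.5-fold line at 64 h and 96 h, and all 4 subunits of complex II lie below it at each time.

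The complexes differed in size of response. Complex III stood at ratios of 2.35 (2.25 to 2.46), 2.44 (2.31 to 2.57) and 1.22 (1.16 to 1.29) at 64 h, 96 h and 28 d. Complex IV stood at 2.32 (2.24 to 2.41), 2.36 (2.26 to 2.47) and 1.14 (1.09 to 1.2). Complex V stood at 1.89 (1.83 to 1.95), 1.97 (1.89 to 2.05) and 1.14 (1.09 to 1.18), and complex I at 1.72 (1.67 to 1.77), 1.81 (1.74 to 1.88) and 1.11 (1.07 to 1.15). Complex II was lowest, at 1.19 (1.1 to 1.29), 1.04 (0.932 to 1.15) and 0.942 (0.864 to 1.03). At 64 h and 96 h its interval did not reach those of the other complexes.

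In complex I, 20 of 35 subunits were at least 1.5-fold higher at 64 h, 23 at 96 h and 6 at 28 d. Of all genes 22.8%, 36.5% and 14.2% were, and these shares also stand beside the counts of the other complexes. The 28 d share of complex I, 17.1%, was near that of all genes. Ndufc1, an accessory subunit of the membrane arm, had 21.2 CPM in the GFP-positive and 41.9 CPM in the GFP-negative uninjured library, 119 CPM at 64 h, 108 CPM at 96 h and 40.4 CPM at 28 d. It was high at 64 h and 96 h, and its level at 28 d was near that of the GFP-negative library. Its ratio was 5.62 (4.52 to 7.04) at 64 h, the highest of any nuclear-encoded subunit, then 5.12 (3.98 to 6.61) and 1.91 (1.45 to 2.52). Ndufa3, another accessory subunit, went from 39.5 CPM (78.2 CPM in the GFP-negative library) to 160, 216 and 75.7 CPM, with the highest ratio of the complex at 96 h, 5.46 (4.56 to 6.56). Ndufa6, which belongs to the LYR family and binds the carrier protein Ndufab1, stood at 114 and 139 CPM in the GFP-positive and GFP-negative uninjured libraries, 196 CPM at 64 h, 181 CPM at 96 h and 95.4 CPM at 28 d. At 28 d it was below both uninjured libraries.

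Ndufs4 and Ndufs1 went the other way. Ndufs4, a late-assembled subunit whose loss causes complex I deficiency, had 124 CPM and 133 CPM in the uninjured GFP-positive and GFP-negative libraries, 106 CPM at 64 h, 86.2 CPM at 96 h and 104 CPM at 28 d. All 3 injury libraries were below both uninjured ones, with ratios of 0.852 (0.742 to 0.976), 0.694 (0.568 to 0.842) and 0.84 (0.728 to 0.968). Ndufs1, the largest core subunit of complex I, had ratios of 0.862 (0.739 to 1), 0.702 (0.562 to 0.87) and 0.77 (0.653 to 0.906). Ndufs8, an iron-sulphur subunit, had ratios of 0.596 (0.413 to 0.847), 0.929 (0.613 to 1.37) and 0.49 (0.323 to 0.724). With Ndufc2, another accessory subunit of the membrane arm, at 0.59 (0.404 to 0.845), it was 1 of the 2 nuclear-encoded subunits at least 1.5-fold lower at 28 d, and Ndufc2 had been at 1.39 (1.07 to 1.81) at 64 h. Ndufs1, Ndufs8 and Ndufc2 were chosen after their values were seen.

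The 4 subunits of complex II, all nuclear-encoded, all stayed within 1.5-fold at each time. Sdha, the flavoprotein that oxidises succinate, had 100 CPM without injury (95.2 CPM in the GFP-negative library), 102 CPM at 64 h, 78 CPM at 96 h and 83.4 CPM at 28 d. Sdhb, the iron-sulphur subunit, had 103 CPM (126 CPM in the GFP-negative library), then 119, 130 and 89.6 CPM. The membrane anchors Sdhc and Sdhd had ratios of 1.42 (1.22 to 1.65) and 1.38 (1.04 to 1.82) at 64 h, 0.99 (0.795 to 1.22) and 1.33 (0.922 to 1.89) at 96 h, and 1.15 (0.978 to 1.35) and 1.05 (0.763 to 1.42) at 28 d.

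In complex III, 6 of 8 subunits passed 1.5-fold at 64 h, 6 at 96 h and 1 at 28 d (12.5%, all genes 14.2%). Uqcr11, a small subunit of the complex, had 68.6 CPM without injury (95.2 CPM in the GFP-negative library), 267 CPM at 64 h, 320 CPM at 96 h and 133 CPM at 28 d, and ratios of 3.89 (3.42 to 4.42), 4.67 (4.05 to 5.38) and 1.94 (1.67 to 2.26). All 3 injury libraries were above both uninjured ones. Uqcrq and Uqcr10, also small subunits, had ratios of 3.2 (2.84 to 3.6) and 2.77 (2.51 to 3.06) at 96 h and 1.22 (1.07 to 1.39) and 1.13 (1.02 to 1.26) at 28 d. Uqcrc2, 1 of the 2 large core proteins, was the lowest at 96 h, with 66.6 CPM without injury, 55.5 CPM in the GFP-negative library, 73.4 CPM at 64 h, 46.2 CPM at 96 h and 57.2 CPM at 28 d. The other core protein, Uqcrc1, had ratios of 1.14 (0.98 to 1.33), 1.65 (1.39 to 1.96) and 1.16 (0.987 to 1.35).

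In complex IV, 12 subunits passed the count minimum. Of these, 10 were at least 1.5-fold higher at 64 h, 11 at 96 h and 2 at 28 d (16.7%, all genes 14.2%). Those 2, Cox7c and Cox6c, are small structural subunits of the oxidase. Cox7c had 71 CPM without injury (114 CPM in the GFP-negative library), 237 CPM at 64 h, 273 CPM at 96 h and 127 CPM at 28 d, and Cox6c had 76.1 CPM (142 CPM), 208, 271 and 135 CPM. Cox7c was above both uninjured libraries at each time, whereas Cox6c at 28 d was below the GFP-negative library. Cox8a went from 164 CPM (239 CPM) to 404, 432 and 175 CPM, and Cox6b1 from 110 CPM (147 CPM) to 202, 239 and 130 CPM. Ndufa4 differed in time course, with 94.9 CPM without injury, 238 CPM at 64 h, 159 CPM at 96 h and 70.6 CPM at 28 d, a ratio of 0.744 (0.627 to 0.881) at the last time, and was chosen after its values were seen.

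The paralogous subunits known from muscle, testis, lung and hypoxic cells had few UMIs. Over all nuclei, Cox4i2, Cox6a2, Cox7b2, Cox8b and Ndufa4l2 had 3 to 14 UMIs each, Cox7a1 had 47 and Cox8c had 0. Of the 12 UMIs of Ndufa4l2, 9 were in fibroblast- and mural-like nuclei (19.5 CPM). Cox6b2, the testis form of Cox6b1, had 142 UMIs. In fibroblast- and mural-like nuclei it had 32 UMIs, all in the GFP-negative library, or 69.2 CPM, where Cox6b1 had 136 CPM, against 3.73 CPM in all proximal tubule-like and 8.67 CPM in all thick ascending limb-like nuclei. The GFP-positive proximal tubule-like nuclei held 22 UMIs of it without injury, then 8, 8 and 9. Its ratios of 0.611 (0.235 to 1.42) at 64 h and 1.27 (0.489 to 2.96) at 96 h, the lowest of complex IV at both times, have intervals that hold 1. Across all members, 10 had under 20 UMIs over the proximal tubule-like nuclei of the 4 GFP-positive libraries.

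Cox4i1, the common form of its subunit, and Ndufa13, a complex I subunit, had 0 UMIs in every library, which allows at most 0.419 CPM in the deepest library. Both are annotated wholly inside another protein-coding row on the same strand. Cox4i1 (chr8:120668222-120674207, plus strand, GRCm38) lies within Gm20388, which spans 4435 kb and had 21613 UMIs. Ndufa13 (chr8:69894180-69902558, minus strand) lies within Yjefn3, which had 1286 UMIs. In proximal tubule-like nuclei the Gm20388 row had ratios of 1.57 (1.51 to 1.63), 1.31 (1.24 to 1.38) and 0.89 (0.846 to 0.936), and the Yjefn3 row 1.82 (1.52 to 2.17), 1.97 (1.59 to 2.43) and 1.15 (0.936 to 1.41). These rows are not measures of the 2 members, and the levels of Cox4i1 and Ndufa13 are unknown here. Ndufb8 and Ndufb2 also share 62.0% and 37.2% of their span with another same-strand row, so their counts are uncertain.

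In complex V, 12 of 15 subunits passed 1.5-fold at 64 h, 12 at 96 h and 3 at 28 d (20%, all genes 14.2%). Those 3 were Atp5e, Atp5g3 and Atp5a1, named after their values were seen, at 1.75 (1.53 to 2.00), 1.56 (1.36 to 1.79) and 1.51 (1.32 to 1.73). Atp5b, the catalytic beta subunit, had 255 CPM without injury (290 CPM in the GFP-negative library), 355 CPM at 64 h, 337 CPM at 96 h and 199 CPM at 28 d. Its ratios of 1.39 (1.28 to 1.51), 1.32 (1.19 to 1.47) and 0.78 (0.705 to 0.863) were below the 1.5-fold line, and at 28 d it was below both uninjured libraries. Atp5d, the delta subunit of the central stalk, had ratios of 1.5 (1.33 to 1.69), 1.86 (1.61 to 2.14) and 0.973 (0.843 to 1.12). Atp5k, subunit e of the membrane part, had 17.2 CPM (20.4 CPM in the GFP-negative library), then 33.2, 70.4 and 26.2 CPM, with the highest ratio of the complex at 96 h, 4.09 (3.04 to 5.51). Atp5f1, subunit b of the peripheral stalk, was lowest at 96 h with 0.784 (0.615 to 0.99) after 1.51 (1.3 to 1.75) at 64 h.

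Counted by interval, 57 of the 74 nuclear-encoded subunits were above 1 at 64 h, 56 at 96 h and 27 at 28 d, and 2, 5 and 8 were below it. Of all genes 32.8%, 37.9% and 22.6% had an interval above 1 and 14.8%, 15.9% and 12.3% one below it. Over the nuclear-encoded subunits and assembly factors together, 25 had an interval above 1 at each of the 3 times, and at 96 h the 6 highest of these were Ndufa3, Ndufc1, Uqcr11, Atp5k, Cox7c and Cox6c. Those with an interval below 1 at each time numbered 3: Ndufs4 and the assembly factors Ndufaf3 and Ndufaf4. Of all genes 9.80% were above and 4.22% below 1 at each time. At 96 h 74 subunits and 12 assembly factors passed the count minimum, so the 3 below 1 were near the share of all genes. The 3 comparisons share the uninjured library, so these counts do not add up as separate evidence.

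The assembly factors did not share the difference of the subunits. Their summed ratio was 0.942 (0.866 to 1.02), 0.965 (0.865 to 1.08) and 1.02 (0.936 to 1.11). Of 13, 12 and 13 that passed the count minimum, 1, 0 and 0 were at least 1.5-fold higher and 2, 2 and 2 lower. Of all genes 22.8%, 36.5% and 14.2% were higher and 12.0%, 13.8% and 7.85% lower. The lower shares of the assembly factors, 15.4%, 16.7% and 15.4%, were near those of all genes at 64 h and 96 h. Ndufaf4 had 44.5 CPM without injury (81.6 CPM in the GFP-negative library), 24.2 CPM at 64 h, 20 CPM at 96 h and 33.5 CPM at 28 d, and Ndufaf3, its partner in early complex I assembly, had 10.7 CPM (12.5 CPM), 3.32, 4.83 and 3.28 CPM. Both were below the 2 uninjured libraries at each time. Sdhaf2, which helps attach the flavin to Sdha, was the highest of complex II's factors at 96 h with 1.41 (1.09 to 1.81), and Sdhaf3, which helps mature Sdhb, the lowest with 0.735 (0.47 to 1.11).

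The mitochondrially encoded subunits followed another course. Their summed level in proximal tubule-like nuclei was 804 CPM (780 to 829) without injury and 804 CPM (746 to 866) in the GFP-negative library, then 1254 CPM (1214 to 1294) at 64 h, 482 CPM (447 to 519) at 96 h and 865 CPM (831 to 900) at 28 d. The ratios were 1.56 (1.49 to 1.63) at 64 h and 0.599 (0.552 to 0.649) at 96 h, so the 64 h and 96 h libraries lay on opposite sides of the uninjured ones while the nuclear-encoded subunits were high in both. At 28 d the ratio was 1.08 (1.02 to 1.13), and under TMM scaling its direction turned to 0.975. Of these genes, 9 of 12 that passed the count minimum were at least 1.5-fold higher at 64 h, 0 of 11 at 96 h, where 4 were at least 1.5-fold lower, and 3 of 12 at 28 d. At these times 22.8%, 36.5% and 14.2% of all genes were higher by that factor, and at 96 h 13.8% were lower. These transcripts reach a nuclear library with carried-over material, so their level also moves with the purity of each preparation, and that was not tested.

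**Figure D2:**
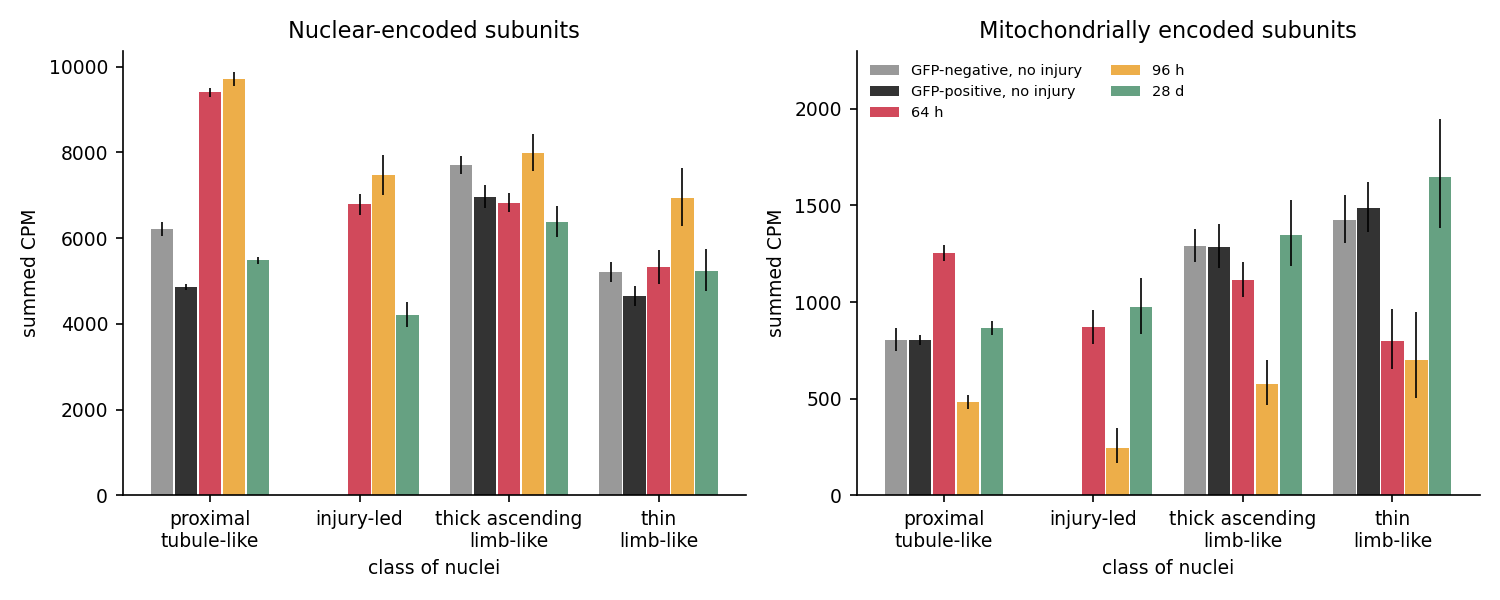
Summed CPM of the nuclear-encoded (left) and mitochondrially encoded subunits (right) by class of nuclei, with 1 bar per library and 95% Poisson intervals for counting error; groups under 50 nuclei are not drawn. In proximal tubule-like nuclei the nuclear-encoded sum stands at 9404 and 9718 CPM at 64 h and 96 h and at most 6215 CPM in the other libraries, whereas the mitochondrially encoded sum is high at 64 h and lowest at 96 h.

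The higher mitochondrially encoded level at 64 h lay mostly in complex I transcripts. mt-Nd1 had 84.6 CPM without injury (81.6 CPM in the GFP-negative library), 200 CPM at 64 h, 36.6 CPM at 96 h and 83.7 CPM at 28 d. Its ratio was 2.36 (2.08 to 2.68) at 64 h and 0.432 (0.319 to 0.576) at 96 h. At 64 h mt-Nd2 stood at 2.97 (2.34 to 3.78), mt-Nd3 at 4.78 (3.16 to 7.39), mt-Nd4 at 1.84 (1.53 to 2.21), mt-Nd4l at 4.28 (2.51 to 7.59) and mt-Nd5 at 5.42 (3.32 to 9.19). At 96 h these 5 lay between 0.654 (0.224 to 1.59) for mt-Nd3 and 1.59 (0.671 to 3.49) for mt-Nd5, with intervals that hold 1. mt-Nd6, the member transcribed from the light strand, had 11 UMIs over all libraries and gives no ratio.

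The oxidase and cytochrome b transcripts differed less at 64 h. mt-Co3 had 242 CPM without injury, 218 CPM in the GFP-negative library, 269 CPM at 64 h, 117 CPM at 96 h and 269 CPM at 28 d, a ratio of 1.11 (1.01 to 1.21) at 64 h and 0.484 (0.41 to 0.569) at 96 h. mt-Co1 stood at 1.21 (1.09 to 1.35) and 0.707 (0.598 to 0.832), and mt-Cytb at 1.13 (0.959 to 1.32) and 0.443 (0.322 to 0.598). mt-Co2 went with the complex I transcripts at 64 h, with 2.18 (1.87 to 2.54), then 0.778 (0.587 to 1.02). mt-Atp6 stood at 1.54 (1.34 to 1.77) and 0.462 (0.345 to 0.609). mt-Atp8, which overlaps mt-Atp6 on the genome, had 1.38 CPM without injury, 3.4 CPM in the GFP-negative library, and 8.3, 8.28 and 7.64 CPM after injury, all from few UMIs.

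As a share of all mitochondrially encoded member UMIs, complex I transcripts made up 20.7% (exact Clopper-Pearson interval 19.5% to 22%) in the GFP-positive and 19.6% (16.7% to 22.7%) in the GFP-negative uninjured library, then 33.5% (32% to 35%), 23.8% (20.7% to 27.1%) and 20.6% (19% to 22.3%) in order of time. The share does not depend on how UMIs are scaled between libraries. At 64 h it was 30.9% (26.4% to 35.8%) in a cluster led by injury genes, described further down, and 24% (20.6% to 27.6%) in the thick ascending limb-like nuclei, against 19% (15.7% to 22.8%) in the latter without injury. In the 64 h library the share was thus higher in proximal tubule-like than in thick ascending limb-like nuclei, with intervals that did not overlap.

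**Figure D3:**
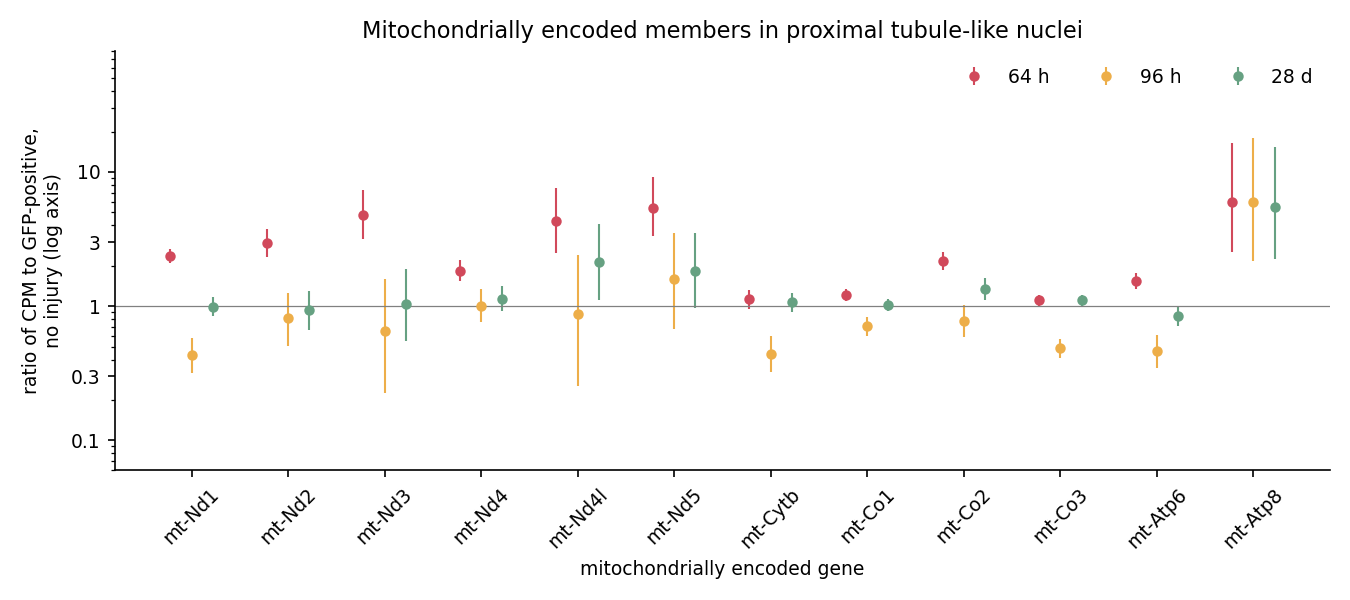
Ratio of CPM in proximal tubule-like nuclei to the GFP-positive uninjured library (y axis, log) for 12 mitochondrially encoded genes (x axis) at 64 h, 96 h and 28 d, with 95% intervals for counting error; mt-Nd6 is left out for its low count, and mt-Atp8 at 96 h is below the count minimum. The 6 mt-Nd genes and mt-Co2 are at least 1.84 at 64 h, while mt-Cytb, mt-Co1 and mt-Co3 lie between 1.11 and 1.21.

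The time course of the nuclear-encoded sum was seen within each of the 3 proximal tubule-like clusters that hold at least 50 nuclei in each GFP-positive library. In the cluster whose leading genes include Slc5a2, the glucose transporter of the early segments, it was 4744 CPM without injury, 8334 CPM at 64 h, 8453 CPM at 96 h and 5282 CPM at 28 d. In the cluster led by Slco1a1, a transporter of the late segments, it was 4818, 8500, 9690 and 5536 CPM, although 64 h and 96 h held 84 and 94 nuclei. In the cluster led by Cyp2a5 and Dpp4, mostly of 64 h nuclei, it was 5100, 9588, 9425 and 4947 CPM. Another cluster had Snx31, Fgg and C3 among its leading genes and was mostly of 96 h nuclei. It stood at 9934 CPM at 64 h, 9966 CPM at 96 h and 5362 CPM at 28 d. The cluster led by C3, Fgg and Icam1, whose first genes are not tubule markers, stood at 9504, 9543 and 5267 CPM. The cluster led by Cyp7b1, with too few nuclei at 64 h and 96 h, stood at 5338 CPM without injury (6412 CPM in the GFP-negative library) and 6498 CPM at 28 d. The clusters that hold most of the class thus differ between libraries, but the ratio within the Slc5a2 cluster was 1.76 at 64 h and 1.78 at 96 h, and within the Slco1a1 cluster 1.76 and 2.01.

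**Figure D4:**
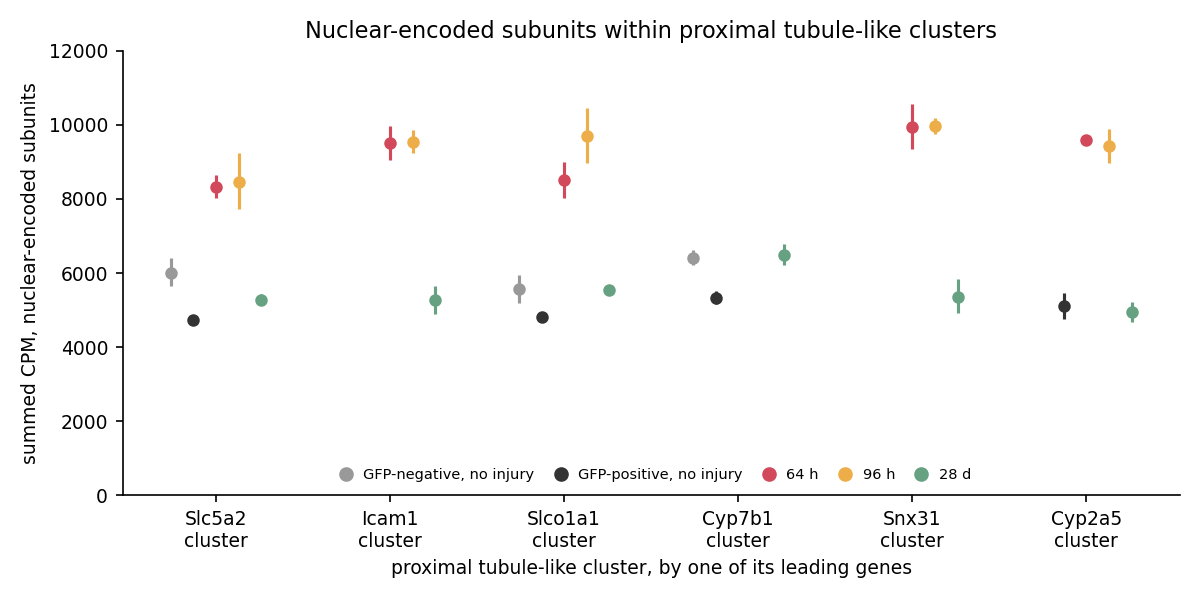
Summed CPM of the nuclear-encoded subunits (y axis) in each proximal tubule-like cluster (x axis, named by one of its leading genes) and library, with 95% Poisson intervals for counting error; groups under 50 nuclei are not drawn. In the 5 clusters with 64 h and 96 h points, these lie above the 28 d points and above the uninjured points where those are drawn. The Snx31 and Icam1 clusters have no uninjured point.

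A separate cluster led by Cd44, Havcr1, Krt20 and Vcam1, genes of injured tubule, held 181 nuclei at 64 h, 150 at 96 h and 140 at 28 d. Its nuclear-encoded sum was below that of the proximal tubule-like nuclei of the same library, with ratios of 0.722 (0.695 to 0.749), 0.768 (0.719 to 0.82) and 0.768 (0.714 to 0.825). Its mitochondrially encoded sum stood at 0.694 (0.623 to 0.77), 0.509 (0.345 to 0.725) and 1.12 (0.962 to 1.31).

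The thick ascending limb-like nuclei did not show the difference at 64 h. Their nuclear-encoded sum was 6966 CPM (6707 to 7232) without injury, 7704 CPM (7496 to 7915) in the GFP-negative library, 6826 CPM (6605 to 7051) at 64 h, 7993 CPM (7578 to 8424) at 96 h and 6382 CPM (6023 to 6757) at 28 d. The ratios were 0.98 (0.932 to 1.03), 1.15 (1.07 to 1.22) and 0.916 (0.855 to 0.981). A cluster led by Clu and Lcn2, genes of injured tubule, made up 304 of 490 of these nuclei at 64 h and 380 of 398 at 96 h, against 10 of 328 without injury. Without it the ratio was 1.22 (1.15 to 1.3) at 64 h and 1.06 (0.976 to 1.15) at 28 d, which at 64 h lay below the interval of the proximal tubule-like nuclei and at 28 d overlapped it, and the 18 nuclei left at 96 h give no ratio. Of the subunits that passed the count minimum, 9 of 71, 17 of 69 and 6 of 67 were at least 1.5-fold higher, where 22.8%, 28.0% and 19.1% of all genes were. At least 1.5-fold lower were 9, 11 and 12, where 14.2%, 23.5% and 15.3% of all genes were. Marker levels within this class also differed between the libraries. Its 8 thick ascending limb markers summed to 23642 CPM in the GFP-positive uninjured library, then 12664, 5313 and 16953 CPM in order of time. In the same nuclei 7 connecting tubule markers summed to 424 CPM, then 453, 1489 and 720 CPM. Their part in the ratios of this class, summed or by gene, was not tested.

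Some members moved in both segments. In thick ascending limb-like nuclei Uqcr11 stood at 1.9 (1.23 to 3.03) at 64 h and 2.48 (1.46 to 4.26) at 96 h, and Ndufa3 at 1.2 (0.701 to 2.08) and 2.44 (1.35 to 4.44). Cox7c stood at 0.846 (0.561 to 1.28) and 0.958 (0.538 to 1.65) there, with intervals that did not reach its ratios of 3.34 and 3.84 in proximal tubule-like nuclei. Sdha was at 0.463 (0.246 to 0.814) and Uqcrc2 at 0.415 (0.156 to 0.94) at 96 h, below the uninjured level as in the proximal tubule.

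The mitochondrially encoded sum was lower in other classes too at 96 h, with 0.447 (0.357 to 0.555) in thick ascending limb-like and 0.472 (0.336 to 0.647) in thin limb-like nuclei, whose cluster also has genes of the papilla such as Akr1b3 among its leading ones. At 64 h it was 0.865 (0.766 to 0.976) and 0.536 (0.431 to 0.662) in these 2 classes, on the other side of 1 from the proximal tubule-like nuclei. The nuclear-encoded sum of the thin limb-like nuclei stood at 1.14 (1.05 to 1.25), 1.49 (1.34 to 1.66) and 1.13 (1.01 to 1.25). Marker levels within this class differed between the libraries compared. In it 6 urothelium markers summed to 451 CPM in the GFP-positive uninjured library, then 30, 0 and 24 CPM, and 7 parietal epithelium markers to 1236 CPM, then 3215, 2303 and 1670 CPM. Its 9 thin limb markers summed to 2405 CPM, then 1435, 1852 and 1238 CPM. Their part in the thin limb-like ratios was not tested.

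Before injury, subunit transcripts were more abundant in thick ascending limb-like than in proximal tubule-like nuclei. The nuclear-encoded ratio between the 2 classes was 1.43 (1.38 to 1.49) in the GFP-positive and 1.24 (1.19 to 1.29) in the GFP-negative uninjured library. The mitochondrially encoded ratio was 1.6 (1.46 to 1.76) and 1.6 (1.45 to 1.77). These ratios were not matched for UMIs per nucleus. When uninjured proximal tubule-like nuclei were split by UMIs, the group with the fewest had mitochondrially encoded levels of 1105 (GFP-positive) and 1307 CPM (GFP-negative). The group with the most had 666 and 654 CPM. Nuclear-encoded levels were 5493 and 6688 CPM in the former and 4593 and 6011 CPM in the latter. The part of depth in the ratios between classes was not tested. At least 1.5-fold higher in thick ascending limb-like nuclei were 31 of 74 nuclear-encoded subunits (41.9%) in the GFP-positive library, where 27.9% of all genes were (1 was lower, against 27.8%). In the GFP-negative library 16 of 73 (21.9%) were, which did not exceed the 25.5% of all genes (0 were lower, against 26.2%). Cox7b, a small oxidase subunit, was 2.44 (1.9 to 3.09) and 2.37 (1.84 to 3.07) times higher in the 2 libraries, and was named after its values were seen. Sdha stood at 1.86 (1.43 to 2.38) and 1.65 (1.23 to 2.23), and Ndufs4 at 1.83 (1.45 to 2.29) and 1.54 (1.2 to 1.99). Uqcr10 stood at 0.91 (0.695 to 1.17) and 0.94 (0.766 to 1.15), with no difference beyond counting error. At 64 h and 96 h the order of the 2 classes was turned, at 0.726 (0.701 to 0.751) and 0.822 (0.778 to 0.869), and at 28 d it was 1.16 (1.1 to 1.24). These thick ascending limb-like sums include the cluster led by Clu and Lcn2, which held most nuclei of the class at 64 h and 96 h. Its part in the turned order was not tested. The 15 proximal tubule markers, which also served to name the clusters, summed to 2033 CPM in thick ascending limb-like against 26938 CPM in proximal tubule-like nuclei of the GFP-positive uninjured library, and to 687 against 25651 CPM in the GFP-negative one. RNA shared between nuclei of a library was not estimated beyond these values.

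In the GFP-negative library, which holds the other cell types, the mitochondrially encoded sum was 3.55 (3.24 to 3.9) times the proximal tubule-like level in endothelium-like, 2.85 (2.59 to 3.15) times in fibroblast- and mural-like and 5.23 (4.52 to 6.03) times in macrophage-like nuclei. The nuclear-encoded ratio was 1.05 (1.01 to 1.1), 0.882 (0.841 to 0.926) and 1.42 (1.3 to 1.55) in the same classes. These nuclei were shallow, with medians of 521.5, 734.5 and 466 UMIs against 2243 UMIs, and within the proximal tubule-like class of every library the third of nuclei with the fewest UMIs had a higher mitochondrially encoded level than the third with the most (1105 against 666 CPM in the GFP-positive uninjured library). The nuclear-encoded sum moved with depth in the same direction but less, from 5493 to 4593 CPM in that library, 10169 to 8910 CPM at 64 h and 11019 to 9007 CPM at 96 h.

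Members with short genes differed more after injury than members with long genes. Among the 24 nuclear-encoded subunits with an annotated span of up to 5 kb, the median log2 difference was 1.26 at 64 h and 1.31 at 96 h, and 21 were at least 1.5-fold higher at each time. Among the 9 of 20 to 50 kb it was 0.14 and 0.16, with 2 and 1 at least 1.5-fold higher. Other genes of the same spans had medians of 0.24 and 0.72 up to 5 kb and of 0.15 and 0.23 from 20 to 50 kb. Of these other genes 32.8% at 64 h and 56.5% at 96 h were at least 1.5-fold higher up to 5 kb. From 20 to 50 kb 20.3% and 31.1% were, so the 2 of 9 members at 64 h were near that share. Across the 74 members the Spearman correlation of log2 difference and log span was -0.48 at 64 h, -0.54 at 96 h and -0.29 at 28 d, and across other genes 0.02, -0.18 and 0.02. These are descriptions across genes, which share their libraries and are not independent replicates. Ndufs4, the longest subunit gene at 100 kb, had the lowest log2 difference of complex I after Ndufs8 at 64 h.

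**Figure D5:**
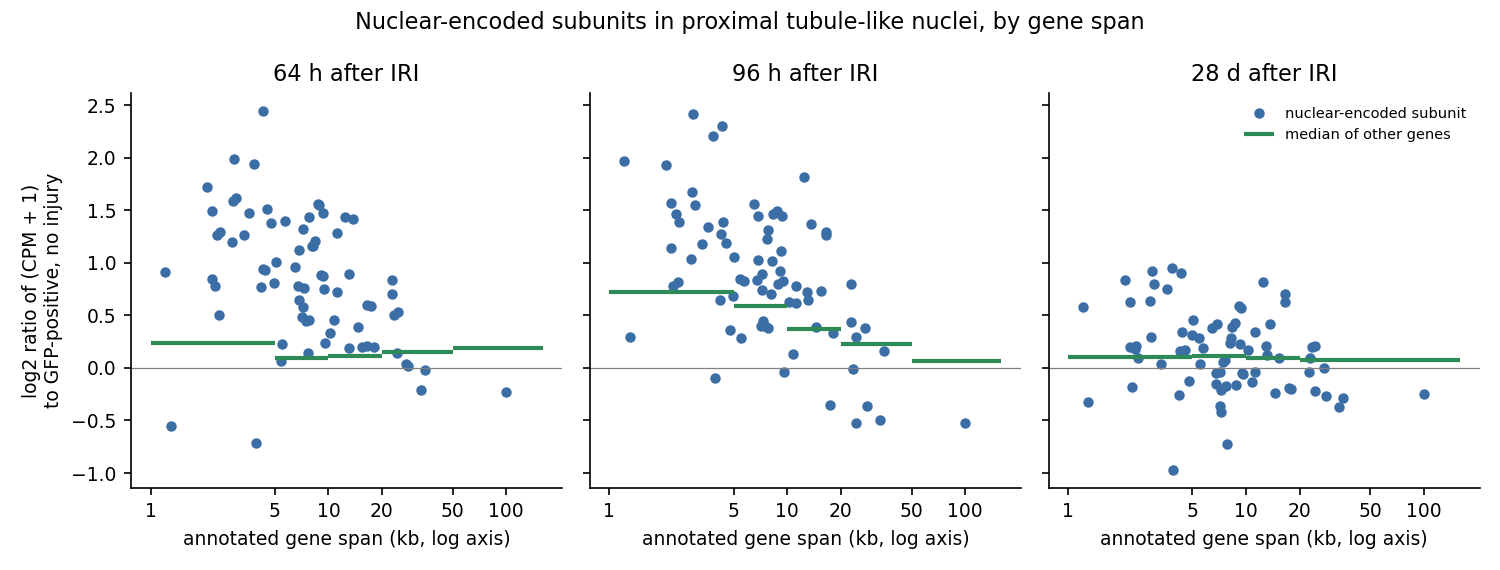
Log2 ratio of CPM + 1 to the GFP-positive uninjured library (y axis) against annotated gene span in kb (x axis, log) for the nuclear-encoded subunits (points) in proximal tubule-like nuclei, with the median of all other genes per span range (green lines). At 64 h and 96 h most members of up to 5 kb lie above the other genes of that span, whose medians are 0.24 and 0.72, while the members of 20 to 50 kb have medians of 0.14 and 0.16, near the 0.15 and 0.23 of other genes.

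Cytosolic ribosomal protein genes, most of them short too, were also higher at 64 h and 96 h, but differed from the subunits elsewhere. They summed to ratios of 2.15 (2.11 to 2.18), 2.61 (2.56 to 2.66) and 0.919 (0.901 to 0.938) in proximal tubule-like nuclei. There 73, 80 and 10 of 83 were at least 1.5-fold higher, against 22.8%, 36.5% and 14.2% of all genes. Lower by that factor were 0, 0 and 16 of 83, against 12.0%, 13.8% and 7.85% of all genes. In thick ascending limb-like nuclei 35 of 64 at 64 h and 54 of 61 at 96 h were at least 1.5-fold higher. Of all genes 22.8% and 28.0% were in that class. In proximal tubule-like nuclei at 64 h the 66 genes of up to 5 kb had a median log2 difference of 1.00 and the 13 of 5 to 10 kb one of 0.91, with 2 genes in each of the next ranges (1.28 and 1.24). Malat1, a long RNA kept in the nucleus, stood at 0.563 (0.561 to 0.565), 0.706 (0.702 to 0.709) and 0.884 (0.881 to 0.887), and in the GFP-negative over the GFP-positive uninjured library at 0.775 (0.771 to 0.779). Malat1 was thus lower in each library in which the subunits were higher, and its part in the result was not tested. With Malat1 taken out of the total the nuclear-encoded ratios were 1.74, 1.86 and 1.1.

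By median, mitochondrial ribosomal and assembly genes differed less than the subunits at 64 h. The counts that follow are in order of time, and the shares of all genes beside them are 22.8%, 36.5% and 14.2% at least 1.5-fold higher and 12.0%, 13.8% and 7.85% lower. Of the mitochondrial ribosomal protein genes 21 of 75, 31 of 74 and 5 of 74 (28.0%, 41.9% and 6.76%) were at least 1.5-fold higher, near or below those shares, with medians of 0.42, 0.46 and -0.03 on the log2 scale, and at 96 h they ranged from Mrpl33 at 4.44 (3.57 to 5.53) to Mrpl3 at 0.478 (0.22 to 0.93). Of the assembly genes of complexes III and IV, 8 of 25, 11 of 23 and 3 of 24 were at least 1.5-fold higher. Cox17, the copper chaperone of the oxidase, was highest at 96 h at 5.85 (3.76 to 9.23), and Uqcc1, which helps make cytochrome b, lowest at 0.713 (0.572 to 0.882). Of 11 further assembly genes of complexes I and V, 0 were at least 1.5-fold higher at any time, and Ecsit of complex I and Tmem70 of complex V marked the ends of the range at 96 h with 1.11 (0.804 to 1.51) and 0.155 (0.0182 to 0.594).

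Genes that read, copy or translate mitochondrial DNA did not follow the mitochondrially encoded subunits at 64 h: 1 of 25, 7 of 24 and 0 of 24 were at least 1.5-fold higher and 6, 4 and 3 at least 1.5-fold lower. At 96 h these shares, 29.2% and 16.7%, were near those of all genes (36.5% and 13.8%). Slirp, which stabilises mitochondrial transcripts, was highest at 96 h at 2.11 (1.45 to 3.05), and Mterf3, a regulator of mitochondrial transcription, lowest at 0.452 (0.217 to 0.85). Among regulators of mitochondrial biogenesis 3, 4 and 1 of 17 were at least 1.5-fold higher and 2, 4 and 1 lower. The higher shares were 17.6%, 23.5% and 5.88%, against 22.8%, 36.5% and 14.2% of all genes. Pprc1, a coactivator related to PGC-1α, was highest at 96 h at 2.92 (2.04 to 4.15) and Gabpa, whose motif is shown above, lowest at 0.345 (0.153 to 0.685). Ppargc1a, the coactivator PGC-1α and named after its values were seen, had 314 CPM without injury, 135 CPM in the GFP-negative library, 448 CPM at 64 h, 155 CPM at 96 h and 295 CPM at 28 d. It was highest at 64 h, and its level at 96 h was near that of the GFP-negative uninjured library.

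Of the genes of electron carriers and nucleotide exchange, 7 of 23, 7 of 22 and 2 of 22 (30.4%, 31.8% and 9.09%) were at least 1.5-fold higher, where 22.8%, 36.5% and 14.2% of all genes were, from Coq6 at 2.17 (1.3 to 3.56) to Pdss1 at 0.54 (0.431 to 0.67) at 96 h, both of ubiquinone synthesis. Of the citric acid cycle genes, 1, 3 and 0 of 16 were, from Idh3b at 1.9 (1.5 to 2.4) to Pdhb, of the pyruvate dehydrogenase that feeds the cycle, at 0.803 (0.6 to 1.06). Of the glycolysis genes, 8, 11 and 5 of 13 were, from Gapdh at 5.28 (3.43 to 8.23) to Pfkm at 0.499 (0.152 to 1.28).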

How the data were processed

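Single-nucleus 3′ RNA-seq (10x version 2) was deposited as 5 filtered matrices of whole-number UMI counts per gene and barcode. The authors' tools for these counts were Cell Ranger 2.1, STAR 2.5.1b and bcl2fastq 2.17, on mm10, per the submitters' processing notes, with a pre-messenger RNA reference, per the series' design text. The members and gene lists were chosen with earlier results of these data known, so no pattern here is independent support.

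Barcodes needed a minimum of 200 genes and could hold up to 10% mitochondrial UMIs, which kept 3202 of 3508 barcodes at 96 h, 3338 of 3339 in the GFP-negative library and all in the others. They were normalised to 10000 UMIs and clustered with scanpy 1.11.5 on 2000 variable genes, 30 principal components and 15 neighbours (Leiden resolution 1.0), after taking out the members and all mitochondrial genes. Components and exact neighbours were computed in double precision in place of scanpy's own steps. No doublet caller was run, and 4 clusters that mixed markers of several classes or were led by injury genes stayed unnamed. Clusters were named from marker lists and are rebuilt names, not the authors' ones. UMIs were summed per class and library, scaled to CPM by total UMIs, and compared as ratios with exact conditional Poisson 95% intervals, which cover counting error only, as do the Poisson and Clopper-Pearson intervals and the limit of 3 counts behind a 0. PCR duplicates were collapsed by UMI in the deposited counts.

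A gene was counted as higher or lower at 1.5-fold on CPM + 1, among genes with at least 20 UMIs over both sums. Named genes were, by rule, all mitochondrially encoded members, the 2 nuclear members of each complex with the most UMIs without injury, the highest and lowest of each complex and list at 96 h, the members on the same side of 1 at all 3 times, the paralogous subunits and Sdha to Sdhd. The interval code was tested on simulated data. TMM factors came from edgeR 4.0.16. Spans and overlaps came from GENCODE vM21 (GRCm38, the build of the files), in which all 109 members were found. Overlap was counted on the same strand. The labels do not name separate animals for the 2 uninjured libraries.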

Additional observations from a re-analysis of the deposited data

Results flagged for a closer look

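Some classes of nuclei lay on the other side of 1 from the proximal tubule-like nuclei under the same contrast with the GFP-positive uninjured library. These differences between classes were not tested, since each time has 1 library. For the nuclear-encoded subunits at 28 d, the thick ascending limb-like nuclei stood at 0.916 (0.855 to 0.981) and the proximal tubule-like nuclei at 1.13 (1.1 to 1.15). Without the cluster led by Clu and Lcn2 the direction turned, to 1.06 (0.976 to 1.15), which overlaps the proximal tubule-like interval. For the mitochondrially encoded subunits at 64 h, the proximal tubule-like nuclei stood at 1.56 (1.49 to 1.63). The thick ascending limb-like nuclei stood at 0.865 (0.766 to 0.976), and at 0.79 (0.668 to 0.931) without the cluster led by Clu and Lcn2. The thin limb-like nuclei stood at 0.536 (0.431 to 0.662) and the principal cells of the collecting duct at 0.718 (0.514 to 0.991), the last from 68 nuclei against 82. Markers of urothelium and parietal epithelium in the thin limb-like class differed between these libraries, as did thick ascending limb markers in the thick ascending limb-like class.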

How the results depend on the processing

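No paired analysis was possible because each group is 1 library. All values are for proximal tubule-like nuclei unless stated, as ratios to the GFP-positive uninjured library at 64 h, 96 h and 28 d. The summed nuclear-encoded ratio stayed above 1 at 64 h and 96 h under each of 19 alternatives, from 1.51 to 1.96 and from 1.49 to 2.04, and the mitochondrially encoded ratio stayed above 1 at 64 h (1.33 to 1.75) and below 1 at 96 h (0.362 to 0.648). The 28 d ratios did not keep their direction. Nuclear-encoded ratios were 1.68, 1.49 and 1.02 with TMM scaling, 1.69, 1.83 and 1.09 over all nuclei of the GFP-positive libraries, and 1.87 at 64 h with the injury-led cluster added. At resolution 0.5 and 2.0 they were 1.86 and 1.86 at 64 h. At 96 h the ratio was 1.85 in barcodes of 400 genes or more with up to 5% mitochondrial UMIs, and thinned to 600 UMIs per nucleus, which left out 1605 of 2484 nuclei at 96 h, it was 1.82 (1.09 at 28 d). Mitochondrially encoded ratios were 1.35, 0.445 and 0.975 with TMM scaling, 1.33 and 0.544 at 64 h and 96 h over all nuclei, 1.75 at 64 h without mt-Co3, and 0.471 and 0.987 at 96 h and 28 d thinned. The count of members at least 1.5-fold higher was 32 at 96 h and 7 at 28 d with TMM scaling, against 52 and 12. The following were chosen after seeing the data. With Malat1 left out of the total, nuclear-encoded ratios were 1.74, 1.86 and 1.1 and the mitochondrially encoded one 1.4 at 64 h. In nuclei of 500 to 1500 UMIs they were 1.82, 1.69 and 0.99, and 1.33, 0.362 and 0.793, with 6 members higher at 28 d. In the Slc5a2 cluster they were 1.76, 1.78 and 1.11, with 1.71 for the mitochondrially encoded sum at 64 h. In the Slco1a1 cluster the nuclear-encoded ratio was 1.76 at 64 h and the mitochondrially encoded ones 1.4 and 0.473. Against the GFP-negative library nuclear-encoded ratios were 1.51, 1.56 and 0.882, with 1 member higher at 28 d. Without the cluster led by C3, Fgg and Icam1, and with the Snx31 cluster kept, the mitochondrially encoded ratios were 1.54, 0.553 and 1.06. With clustering seeds 1 and 2 the nuclear-encoded ratios were 1.95, 2.01 and 1.14 and 1.94, 2.01 and 1.14, and the counts higher 48, 53 and 11 and 48, 52 and 12. The cause of these shifts was not tested. Depth limits single members most at 96 h, where the median was 514 UMIs per nucleus.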
